A study of Mus musculus with 6 samples.

Results

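Cassette exons are exons that a cell can keep in a transcript or leave out. Described here are 1849 events of this kind in mouse small intestinal crypt cells, each with an exon whose length is not a multiple of 3. Such exons are called frame-shifting by their length, although some lie outside coding sequence, where there is no frame to shift. They were selected on measured values from the 43465 skipped exon rows of the authors' deposited table. An exon had to be 31 to 299 nt long and not a multiple of 3. Its row had to average 20 or more reads in a library, with a pooled inclusion from 0.1 to below 0.9. Pooled inclusion is the share of transcripts that hold the exon, from reads summed over the 6 libraries and divided by the effective lengths in the table. The rows cover 1612 different exons in 1281 genes, since 1 exon can have several rows with other flanking exons.

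Polyadenylated RNA was sequenced from 3 WT and 3 PTBP1_KO samples. WT mice were Ptbp1f/f, with both Ptbp1 alleles floxed and no Cre, and PTBP1_KO mice were Ptbp1f/f;Vil-creER+/-, in which a tamoxifen-inducible Cre is driven by villin regulatory sequence and acts in the intestinal epithelium. Mice of both groups were C57BL/6, 60 days old and given tamoxifen at 100 mg/kg on 2 days, so the controls carry the drug and the floxed alleles but not the Cre. Crypt cells were collected 20 h after the last injection and were not sorted, and the labels do not say whether each sample is a separate animal. The study asks what PTBP1 does in the regeneration of the intestinal epithelium.

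The headers of the splicing table name a first and a second set of 3 libraries, without a genotype. A positive difference therefore means higher inclusion in the first set, and no direction by genotype is given for any exon. A row counted as changed where the authors' FDR was below 0.05 and the inclusion level difference was 0.1 or more in size. The FDR measures the spread between these libraries only, which may be technical.

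PTBP1, a polypyrimidine tract-binding protein, regulates splicing. It binds CU-rich stretches of pre-mRNA and most often represses the exons beside them, and its relatives PTBP2 and PTBP3 bind similar sequences. Within coding sequence, an exon that is not a multiple of 3 moves the frame of everything downstream when it is left out or put in. The frame then usually runs into a stop codon. A stop well before the last exon junction exposes the mRNA to nonsense-mediated decay, a surveillance pathway that degrades such transcripts, and cells use this to tune the levels of many splicing factors.

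The 3 exons below were chosen because 2 belong to the PTB family and the other, from Gabbr1, was among the largest differences. All are on mm10 and read 5′ to 3′ in the transcript from GENCODE M21, with the letters TCTT, a CU-rich tetramer, in capitals. The Ptbp2 exon lies at chr3:119724612-119724645 on the minus strand, the Ptbp3 exon at chr4:59546149-59546182 on the minus strand, and the Gabbr1 exon at chr17:37067214-37067364 on the plus strand.
Ptbp2 exon: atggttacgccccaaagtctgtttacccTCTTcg
Ptbp3 exon: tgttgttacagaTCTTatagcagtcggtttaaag
Gabbr1 exon: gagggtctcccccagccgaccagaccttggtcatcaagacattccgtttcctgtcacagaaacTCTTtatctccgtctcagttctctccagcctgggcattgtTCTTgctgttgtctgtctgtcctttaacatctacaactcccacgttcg
The Ptbp2 and Ptbp3 exons are both 34 nt long and are identical at 5 of 34 positions, so they have the length in common and little of the sequence. Each printed PTB exon holds TCTT 1 time and the Gabbr1 exon holds it 2 times.

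The next 5 sequences show what the frame shift does when an exon is left out. Each starts with the last 15 nt before the skipped exon, continues into the exon that follows, and ends at the new stop codon in capitals.
Ptbp2 without its exon: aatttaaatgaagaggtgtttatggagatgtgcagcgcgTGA
Ptbp3 without its exon: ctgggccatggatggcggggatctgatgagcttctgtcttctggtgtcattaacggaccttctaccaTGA
Gabbr1 without its exon: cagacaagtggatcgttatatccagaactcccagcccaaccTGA
Atr without its exon: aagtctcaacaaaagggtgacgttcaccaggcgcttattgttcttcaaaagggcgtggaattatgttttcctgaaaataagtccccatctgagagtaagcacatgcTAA
Setd6 without its exon: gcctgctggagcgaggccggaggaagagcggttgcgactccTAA
Without its exon, Ptbp2 stops after 356 of 532 codons, Ptbp3 after 20 of 554, Gabbr1 after 577 of 960, Atr after 1943 of 2641 and Setd6 after 120 of 473. In all 5 the new stop lies more than 50 nt before the last exon junction. A later start codon was not considered. The Atr exon is at chr9:95922748-95922907 and the Setd6 exon at chr8:95716353-95716494, both on the plus strand.

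Other exons bring the stop in when they are included, and 2 of them are printed for this reason. Each again starts with 15 nt of the exon before. Magohb reaches its new stop inside the 200 nt exon at chr6:131291741-131291940 on the minus strand, and Casp2 reaches it just after the 61 nt exon at chr6:42276870-42276930 on the plus strand.
Magohb with its exon: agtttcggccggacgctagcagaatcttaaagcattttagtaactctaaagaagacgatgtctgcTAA
Casp2 with its exon: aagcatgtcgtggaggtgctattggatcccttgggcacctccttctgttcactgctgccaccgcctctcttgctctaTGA
With the exon, Magohb stops after 48 codons where the form without it has 148, and Casp2 after 343 where the other form has 452.

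In the authors' deposited table, 193 of the 1849 rows changed, which is 10.4%, in 185 exons of 165 genes. Over all 37725 skipped exon rows with enough reads, 1.68% changed. That background has a median inclusion of 0.993, where little room is left for a difference of 0.1, against 0.69 in the frame-shifting exons. The choice on inclusion thus bears on the share, and nothing particular to these exons is read from it. Of the changed rows, 124 were positive and 69 negative, while 1.11% of all rows were positive and 0.567% negative. A further 44 rows passed the FDR with a smaller difference.

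The authors' differences of the changed rows had a median size of 0.179, and ran from -0.502 in Tpm2 to 0.848 in Ptbp2. In 31 rows the size was at least 0.3, of which 23 were positive and 8 negative. The inclusion levels of the 3 first-set libraries and the 3 second-set libraries did not overlap in 162 of the 193 changed rows. They did not overlap in 373 of all 1849 rows, 20.2%, and in 7.97% of all rows with enough reads.

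**Figure D1:**
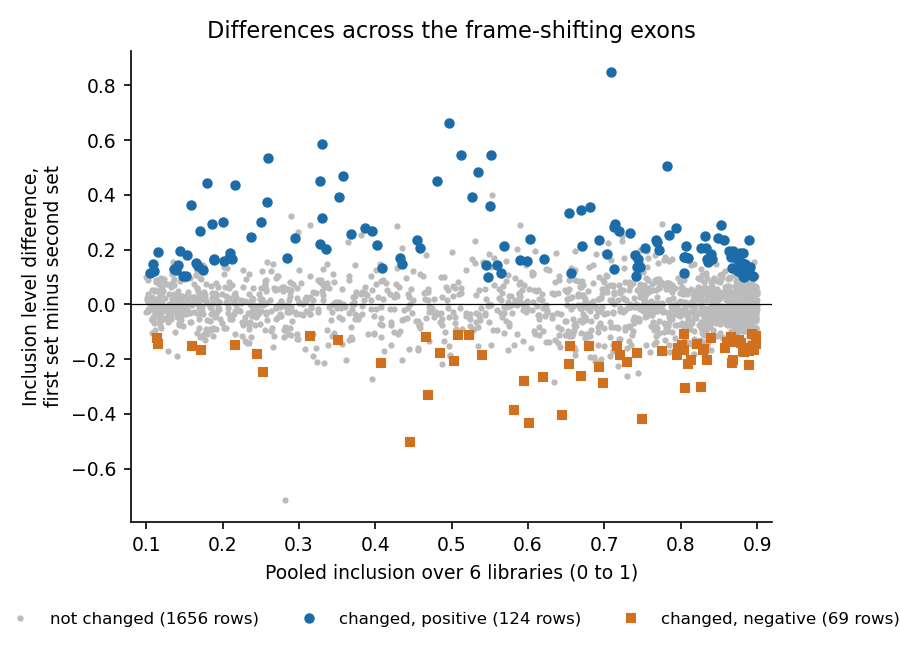
Each point is 1 row of the authors' deposited table, with its pooled inclusion over 6 libraries (x axis) and its inclusion level difference, first set minus second set (y axis). Changed positive rows (124, circles) and changed negative rows (69, squares) lie over the whole range from 0.1 to 0.9, and the lowest grey point, at -0.716, is a Ptbp1 exon that did not pass the FDR.

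Exons of the same limits whose length is a multiple of 3, and which keep the frame, give a side by side view. Of their 1652 rows, 254 changed, which is 15.4%, with 65.7% of the changed rows positive against 64.2% in the frame-shifting exons. From 0.1 to 0.3 inclusion 8.97% of the frame-shifting rows changed, and 18.9% of the frame-keeping rows. From 0.5 to 0.7 the shares were 11.8% and 12.4%. The frame-keeping exons also had more reads, with a median of 95.4 per library against 75.5. Among rows with 200 or more reads, 11% of the frame-shifting and 17.1% of the frame-keeping rows changed. These shares were not tested, and rows of a gene share its reads.

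**Figure D2:**
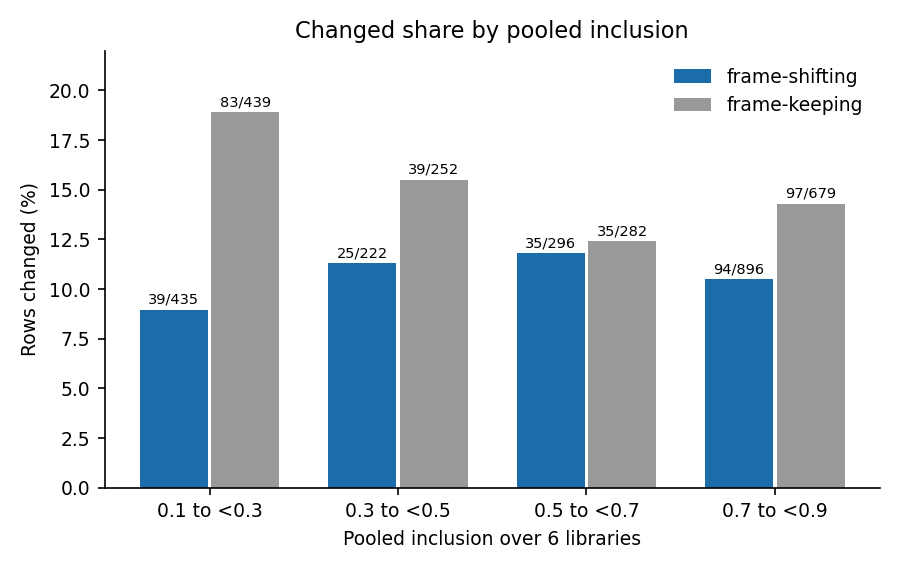
Bars give the percent of rows that changed in the authors' deposited table (y axis) in 4 ranges of pooled inclusion (x axis), with changed rows over all rows printed above each bar. Frame-shifting exons range from 8.97% to 11.8%, and frame-keeping exons from 12.4% to 18.9%.

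At the limits of the selection, an Aprt exon of 113 nt entered with a pooled inclusion of 0.1004 and a Pym1 exon of 55 nt stayed out with 0.0998. A Mettl5 exon of 83 nt entered with 0.8999, and a Setd4 exon of 86 nt stayed out with 0.9002. An Agtpbp1 exon of 88 nt entered with a mean of exactly 20 reads, and an Acp5 exon of 86 nt stayed out with 19.83. None of these 6 rows changed. From 0.89 to 0.9, 8 of 97 rows changed, and from 0.9 to 0.91, just outside, 13 of 118 did. At the lower limit, 3 of 33 rows changed from 0.1 to 0.11, and 0 of 55 from 0.09 to 0.1, just outside.

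The length of the frame-shifting exons had a median of 112 nt, and 835 left a remainder of 1 and 777 a remainder of 2 when divided by 3. Of the 1281 genes, 1021 held 1 such exon and 260 held at least 2. Firre, the gene of a long noncoding RNA, held 6, the most of any gene. The 6 libraries were close in depth, with 32226951 to 39774266 reads over all skipped exon rows and 319771 to 408503 in the frame-shifting rows. The median inclusion of these rows was between 0.670 and 0.687 in every library.

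Among the PTB family, the 34 nt exon of Ptbp2 had the largest difference of all frame-shifting exons. PTBP2 is the neuronal relative of PTBP1, and PTBP1 is known to repress this exon in other cells. Its inclusion was 0.866, 0.840 and 0.948 in the first set and 0.026, 0.031 and 0.053 in the second. Every first-set library was high and every second-set library was near 0. The authors' deposited table gave a difference of 0.848 with an FDR listed as 0, from 52 to 380 reads in a library. Read with the sequences above, the form that holds the exon keeps the frame to codon 532, and the form without it stops early.

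The 34 nt exon of Ptbp3 moved the same way with a smaller difference. PTBP3 is the relative best known from blood-forming cells. Its exon was included at 0.510, 0.399 and 0.549 in the first set and at 0.171, 0.156 and 0.189 in the second. The sets did not overlap, and the authors' deposited table gave 0.314 with an FDR listed as 0. Here the exon directly follows the exon with the start codon, and the frame without it ends after 20 codons.

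Ptbp1 itself held 2 frame-shifting rows, and neither changed. Their exons overlap, since the 31 nt exon lies within the 196 nt exon and ends at the same base. The 196 nt exon had a difference of 0.055 with an FDR of 0.0158 in the authors' deposited table, below the limit of 0.1. It was covered by 14, 42 and 35 reads in the first set and by 225, 250 and 251 in the second. The 31 nt exon had a difference of -0.716 with an FDR of 1.0. It had 252, 377 and 406 reads in the first set, and 0, 3 and 3 in the second, so its second-set levels rest on 6 reads in 2 libraries. No set is assigned a genotype from these reads. At the gene level, Ptbp1 was at 230.0 FPKM in WT and 122.8 FPKM in the PTBP1_KO group (q-value 0.0125 in the authors' deposited table).

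Nonsense-mediated decay factors, a list of 23 genes, held 8 frame-shifting rows in 4 genes, and 4 rows in 3 genes changed, 2 of them for the same Rnps1 exon. With 8 rows the share is coarse, and over all frame-shifting rows it was 10.4%. MAGOHB is a core subunit of the exon junction complex, which marks spliced junctions. Its 200 nt exon was included at 0.412, 0.272 and 0.242 in the first set and at 0.040, 0.026 and 0.052 in the second, from 670 to 1228 reads. The authors' deposited table gave 0.269 with an FDR listed as 0. The first set was higher in all 3 libraries, and the form with the exon is the one that stops after 48 codons.

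RNPS1 is a protein that joins the exon junction complex and activates splicing. Its 181 nt exon, which holds the annotated start codon, had 2 changed rows with differences of 0.114 and 0.102 in the authors' deposited table. DHX34 is a helicase that acts with UPF1. Its 175 nt exon was included at 0.693, 0.738 and 0.719 in the first set and at 1.0, 0.878 and 0.885 in the second. Skipping it gives a stop after 536 of 1145 codons, and the difference was -0.204 (FDR 0.0221 in the authors' deposited table). The first library of the first set had 12 reads in that row. None of the 23 genes passed the gene-level test (q-value below 0.05), against 0.388% of all tested genes higher in PTBP1_KO and 0.149% lower.

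Splicing regulators, a list of 105 genes, held 68 frame-shifting rows in 36 genes. Of these 68, 6 rows in 5 genes changed, 4 positive and 2 negative, and their share of 8.82% was near the 10.4% of all frame-shifting rows. Hnrnph1 and Hnrnpa2b1 encode abundant RNA-binding proteins that bind G-rich and UAG-bearing RNA. The 127 nt exon of Hnrnph1, in its 5′ untranslated region, had a difference of 0.292 in the authors' deposited table. That row held only 24 to 40 reads in a library, in a gene at 365.5 FPKM in WT and 277.6 FPKM in PTBP1_KO. The 136 nt exon of Hnrnpa2b1, in its 3′ untranslated region, was included at 0.682, 0.685 and 0.691 in the first set and at 0.455, 0.568 and 0.550 in the second, from 822 to 1395 reads. The first-set libraries lay within 0.01 of each other there, and the second set was lower and wider.

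CLK4 is a kinase that phosphorylates SR proteins, and RBM39 is an SR-like splicing factor. Both changed exons lie in transcripts that the annotation marks for nonsense-mediated decay. The Clk4 exon of 67 nt was included at 0.323, 0.338 and 0.406 in the first set and at 0.208, 0.194 and 0.156 in the second, with a difference of 0.17. The Rbm39 exon of 73 nt had a difference of 0.13 in the authors' deposited table, from 118 to 193 reads. Esrp1, which encodes an epithelial splicing regulator, held the 2 negative rows and is described with the paired exons. No gene of this list passed the gene-level test among 94 tested, and the median log2 ratio of its genes was -0.00.

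Each exon was then placed in an annotated coding transcript, and the form made by removing or adding the exon was read to its first stop. The annotated form was taken to have no early stop, without a check. The class with no early stop in either form rests on this. An early stop is one more than 50 nt before the last exon junction. Of the 1612 exons, 964 fell in coding sequence. Skipping gave an early stop in 488 of them, 50.6%, inclusion gave one in 263, 27.3%, and neither form had one in 213, 22.1%. Of the frame-keeping exons, 1118 were coding, and the 3 shares were 0.268%, 8.5% and 91.2%. The contrast follows from the length rule and is a description. Another 325 frame-shifting exons lay in a 5′ untranslated region and 88 held the start codon.

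The median inclusion was 0.832 over the 516 rows where skipping gave the stop and 0.271 over the 279 rows where inclusion did. Inclusion is the value on which the rows were selected, so these medians are a description within its limits. The classes also depend on the annotation. A row could enter the class where inclusion gives the stop only if no usable coding transcript holds the exon between the same flanking exons. The median inclusion was 0.7 over the 244 rows with no early stop, and 0.457 over the 398 rows in 5′ untranslated regions. An mRNA with an early stop may also be degraded before it is counted, which these reads cannot separate from splicing.

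The shares of the classes among changed and other exons were set side by side, without a test. A changed exon is placed here by its changed row with most reads, and in the totals above by its row with most reads, so the counts of coding exons differ slightly. Among changed coding exons of either sign, skipping gave the early stop in 57 of 106, 53.8%, against 430 of 853, 50.4%, among those not changed. It was 31 of 63 among positive exons, 49.2%, and 26 of 43 among negative exons, 60.5%. The start codon was held by 10 of 118 positive exons and by 1 of 67 negative exons. By rows, 11% of those whose skipping gave a stop changed, 8.6% of those whose inclusion did and 11.1% of those with no early stop.

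**Figure D3:**
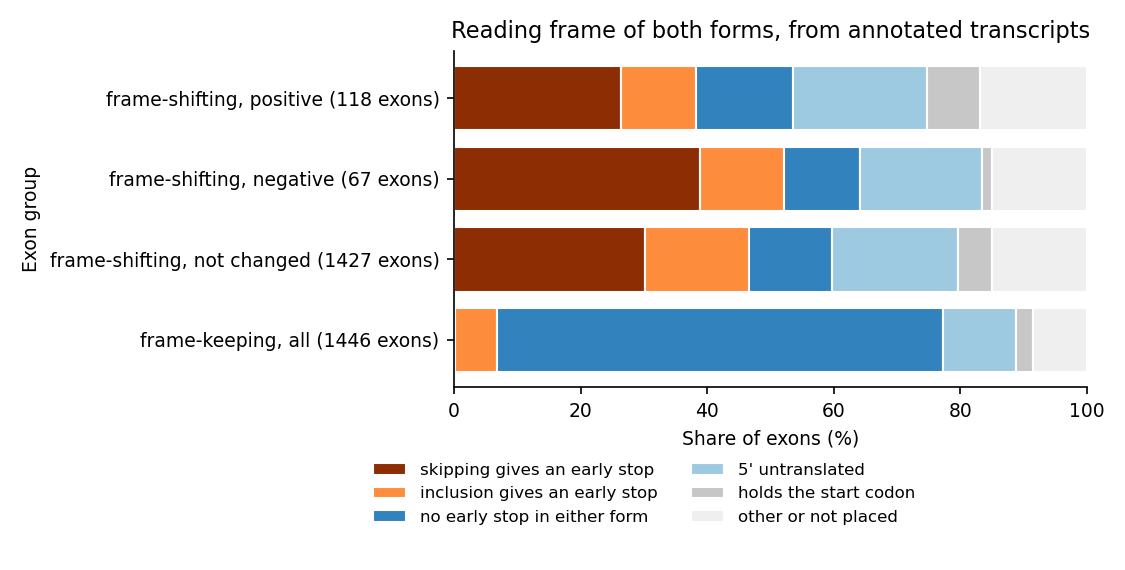
Stacked bars give the percent of unique exons (x axis) in each reading-frame class for 4 groups of exons (y axis), from annotated transcripts and with no sample values. In the frame-shifting groups both early-stop classes together cover a large part of the bar, and frame-keeping exons are mostly without an early stop (91.2% of their coding exons).

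Where skipping gives the early stop, the largest positive differences beside Ptbp2, with 20 reads in every library, were in Tmem179b, Slc7a7 and Gabbr1. Tmem179b encodes a transmembrane protein. Its 188 nt exon at chr19:8773505-8773692 was included at 0.802, 0.805 and 0.922 in the first set and at 0.309, 0.313 and 0.271 in the second. The sets were far apart, with a difference of 0.545 in the authors' deposited table and 227 to 341 reads per library. An overlapping 118 nt exon at chr19:8773505-8773622 lies only in transcripts marked for nonsense-mediated decay. It had changed rows with differences of 0.361 and 0.194, and rows of overlapping exons can share reads. Gabbr1, a subunit of the GABA-B receptor, was included at 0.516, 0.352 and 0.530 and at 0.0, 0.041 and 0.047. Inclusion was thus near 0 in the second set, at a gene level of 3.83 FPKM in WT and 3.73 FPKM in PTBP1_KO. Slc7a7, an exchanger of cationic and neutral amino acids, had a 145 nt exon with a difference of 0.452, an FDR of 0.00212 and as few as 20 reads.

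In the same class, the largest negative differences under the rule for named exons were in Setd6, Atr and Trnau1ap. ATR is the kinase that senses stalled replication forks. Its 160 nt exon was included at 0.668, 0.734 and 0.720 in the first set and at 0.940, 0.953 and 0.885 in the second. No first-set library reached a second-set one, and the authors' deposited table gave -0.219 (FDR 1.8e-08). Setd6, a lysine methyltransferase gene, was included at 0.650, 0.502 and 0.511 and at 0.919, 0.694 and 0.833. Its sets were separated by less, with a difference of -0.261 (FDR 0.00175). Trnau1ap, which takes part in selenocysteine insertion, had a 98 nt exon with a difference of -0.218 and a 100 nt exon with -0.176.

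Members of 3 more gene lists were described, and every changed one is named here or with the pairs and the other C termini, outside the rule for the largest differences. DNA damage and p53 pathway genes, 33 in all, held 9 frame-shifting rows in 8 genes, of which 2 changed, in Atr and Casp2. Cytoskeleton and adhesion genes, 54 in all, held 12 rows in 10 genes, and 4 changed, positive in Ctnnd1 and Itga6 and negative in Tpm1 and Tpm2. Membrane trafficking genes, 43 in all, held 16 rows in 11 genes, and 3 changed, 2 positive in Eps15l1 and 1 negative in Exoc7. The counts are small, and 10.4% of all frame-shifting rows changed. Ctnnd1 encodes p120 catenin, which holds cadherins at the cell surface. Its 289 nt exon with the start codon was included at 0.585, 0.466 and 0.557 in the first set and at 0.267, 0.261 and 0.278 in the second, from 935 to 1585 reads. The second-set libraries were close together and all lower, with a difference of 0.267 in the authors' deposited table.

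Where inclusion gives the early stop, Casp2 had a well-covered example. Caspase-2 is a protease of the cell death pathway. Its 61 nt exon was included at 0.299, 0.215 and 0.292 in the first set and at 0.092, 0.091 and 0.137 in the second. The first set was higher throughout, and the authors' deposited table gave 0.162 (FDR 7.2e-08). Exoc7, a subunit of the exocyst that tethers secretory vesicles, had a 151 nt exon at 0.441, 0.494 and 0.587 and at 1.0, 0.911 and 0.909. Its difference was -0.433 (FDR 2.77e-08), from as few as 19 reads in a library.

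The tropomyosin exons need a separate reading, because the neighbour of each exon in its row is the other exon of a mutually exclusive pair. Tropomyosins are coiled-coil proteins that wind along actin filaments. The 76 nt exon of Tpm1 was included at 0.481, 0.625 and 0.527 in the first set and at 0.966, 0.962 and 0.962 in the second, from 944 to 1141 reads. The second-set libraries lay within 0.01 of each other, and the authors' deposited table gave -0.419 with an FDR listed as 0. The 76 nt exon of Tpm2 had -0.502 (FDR 0.000174) from a mean of 21.5 reads. The frame computed for such a row need not be that of the usual swap, and for Tpm1 and Tpm2 the early stop is that of both exons together. Of the frame-shifting rows, 264 are of this kind, and 32 of them changed, 12.1% beside 10.4% of all. Atat1, the gene of a tubulin acetyltransferase, had another, with an 83 nt exon and a difference of -0.228. The Atr row and the 98 nt Trnau1ap row are of this kind too. So are the described rows of Clk4, Ctnnd1 and Batf2, the 127 nt row of Tmem234 and the 31 nt row of Ptbp1.

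Of the 213 coding exons with no early stop in either form, 33 held the normal stop codon, so that skipping them gives another C terminus. Itga6, Tcf7l2 and Magi3 were taken from the changed exons of this class, and the last 2 were chosen after their values were seen. Integrin alpha 6, a laminin receptor of basal epithelial surfaces, has an exon of 130 nt that sets its cytoplasmic tail. It was included at 0.583, 0.688 and 0.740 and at 0.520, 0.561 and 0.454, a difference of 0.159 (FDR 0.00129 in the authors' deposited table). The lowest first-set library lay just above the highest second-set one.

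TCF7L2 is the transcription factor through which Wnt signalling acts in the crypt. Its 73 nt exon was included at 0.739, 0.809 and 0.594 in the first set and at 0.876, 0.888 and 0.874 in the second, and a second row of the same exon had -0.202. The first-set libraries were spread wider than the second. MAGI3 is a scaffold protein of cell junctions, and its 91 nt exon had 0.210, 0.332 and 0.399 and then 0.017, 0.0 and 0.045. The second set was near 0 in all 3 libraries. Cers5, a ceramide synthase, had a 107 nt exon at 0.503, 0.361 and 0.472 and then at 0.0, 0.004 and 0.0. Second-set inclusion was almost nil there, with 117 to 161 reads in each library, and the difference was 0.444.

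In 5′ untranslated regions a frame shift has no reading frame to move, and 41 of 398 such rows changed, 28 positive and 13 negative, a share of 10.3% beside 10.4% of all frame-shifting rows. GPR160 is an orphan G protein-coupled receptor. Its 112 nt exon was included at 0.425, 0.438 and 0.476 in the first set and at 0.027, 0.081 and 0.107 in the second, a difference of 0.375. Inclusion was low in all 3 second-set libraries of that row. Another changed row of the same exon had 0.888, 0.934 and 0.928 and then 0.333, 0.484 and 0.420. Its difference was 0.504, from as few as 17 reads in a library, so the level depends on the flanking exons. Apol7a, of the apolipoprotein L family, had 0.699, 0.7 and 0.721 and then 0.415, 0.342 and 0.285, although reads of its close paralogs may be shared. Prepl, a serine hydrolase gene, went the other way with -0.279 (FDR 0.000459 in the authors' deposited table). The remaining genes here were chosen after their values were seen. Kcne3, a potassium channel subunit of secretory epithelium, had 4 changed rows with differences from 0.2 to 0.267 and means of 160.8 to 642.0 reads, from overlapping exons that share reads. Ift20, of the intraflagellar transport complex, had a 229 nt exon with a difference of 0.216 and 1613 to 1963 reads.

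Exons outside a usable coding transcript were among the largest differences as well. ALG13 is a subunit of the enzyme that adds the second sugar of N-linked glycans. Its 40 nt exon at chrX:144364936-144364975 was included at 0.679, 0.484 and 0.534 in the first set and at 0.022, 0.021 and 0.056 in the second. The gap was 0.533, from 32 to 71 reads. Batf2, an AP-1 family transcription factor gene, had a 293 nt exon with 0.356 (FDR 0.000755), and Golga1, of the trans-Golgi, a 176 nt exon with -0.305 (FDR 8.28e-07), both in the authors' deposited table. The 179 nt exon of Nudt13, a Nudix hydrolase gene, the 127 nt exon of Tmem234 and the 197 nt exon of Zfp961, a zinc finger gene, lie only in transcripts marked for nonsense-mediated decay. Their differences were -0.222, -0.214 and -0.211. Large differences also stood in rows with under 20 reads in a library, which the rule for named exons leaves out, and an example was chosen after its values were seen. Slc38a6, an amino acid transporter gene, had a 101 nt exon at 0.673, 0.837 and 0.943 in the first set and at 0.056, 0.121 and 0.286 in the second, from 11 to 39 reads. The sets were far apart, with a difference of 0.663.

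**Figure D4:**
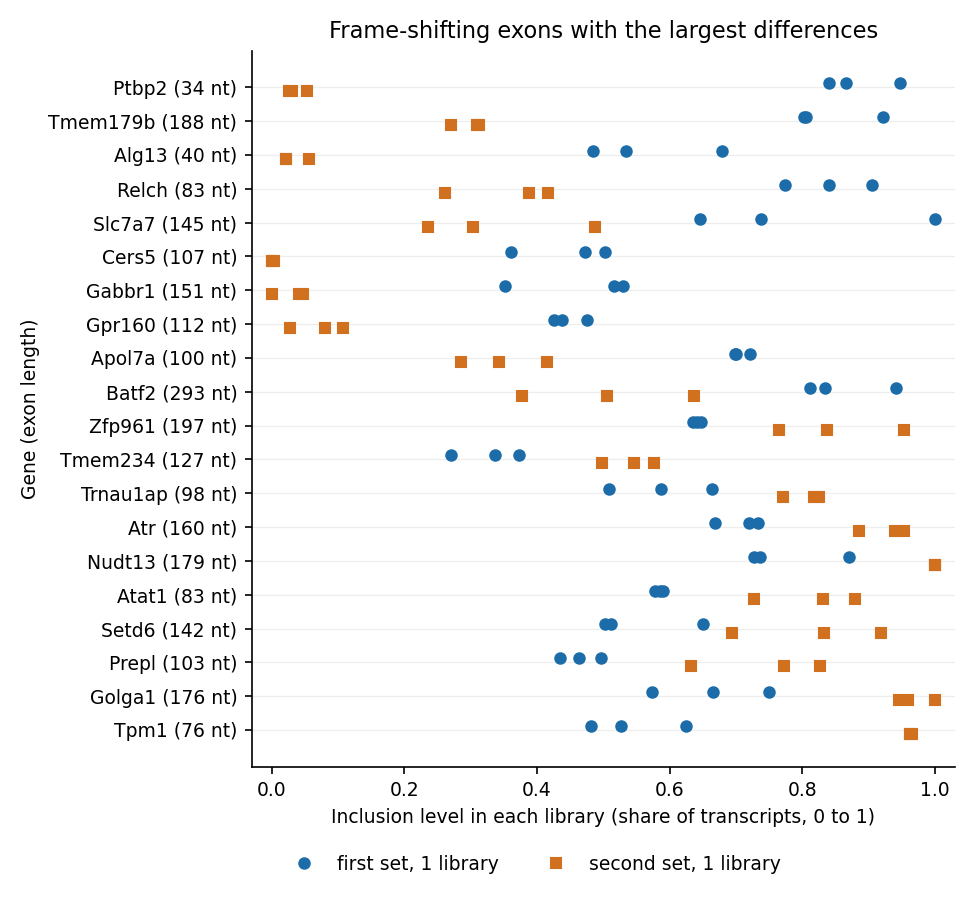
Inclusion level in each library (x axis, 0 to 1) of the 10 frame-shifting exons with the largest positive and the 10 with the largest negative differences, 1 per gene and with at least 20 reads in every library (y axis). Circles are the 3 first-set libraries and squares the 3 second-set libraries, with no genotype named, and the sets do not overlap in any of the 20 exons, which were chosen for a large difference.

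Neighbouring frame-shifting exons can restore the frame if both are included or both are skipped. There were 93 pairs of exons adjacent to each other in a row, and the lengths of 49 pairs, 52.7%, added up to a multiple of 3. Both exons changed in 6 pairs. In 4 of these the lengths added up to a multiple of 3, and in all 4 the exons changed with the same sign. The 4 pairs are few, and the agreement of signs was not tested. Pairs of such a sum in which not both exons changed had the same sign in some, as in Sfi1 (-0.144 and -0.136). In others the signs were opposite, as in Aamdc (0.151 and -0.173). Esrp1 had exons of 151 and 110 nt, 261 nt together, with -0.208 and -0.172 in the authors' deposited table. ESRP1 directs the epithelial forms of many transcripts, and its 151 nt exon was included at 0.262, 0.469 and 0.401 in the first set and at 0.559, 0.614 and 0.582 in the second.

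Dcun1d2, whose protein promotes neddylation of cullins, had exons of 83 and 97 nt, 180 nt together, with 0.301 and 0.278. Eps15l1, of the clathrin-coated pit, had exons of 133 and 206 nt, 339 nt together, with 0.166 and 0.229. Taken alone, each exon of the Esrp1, Dcun1d2 and Eps15l1 pairs was in the class with no early stop in either form. The uncharacterised gene 5530601H04Rik had exons of 110 and 175 nt, 285 nt together, with 0.235 and 0.166, but no usable coding transcript, so no frame can be read there, and the flank of the 175 nt exon is its mutually exclusive partner. Adjacent rows can share junction reads, so the members of a pair are not independent. The other pairs did not sum to a multiple of 3. Pbrm1, a subunit of the PBAF chromatin remodeller, had exons of 140 and 113 nt with 0.236 and 0.545, the larger from as few as 6 reads in a library. Relch, a protein of recycling endosomes, had exons of 83 and 83 nt with 0.485 and -0.247, and the authors' deposited table of mutually exclusive exons listed this pair with a difference of 0.358 and an FDR of 1.46e-11. Relch and Tmem234 were the 2 genes with changed exons of both signs.

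**Figure D5:**
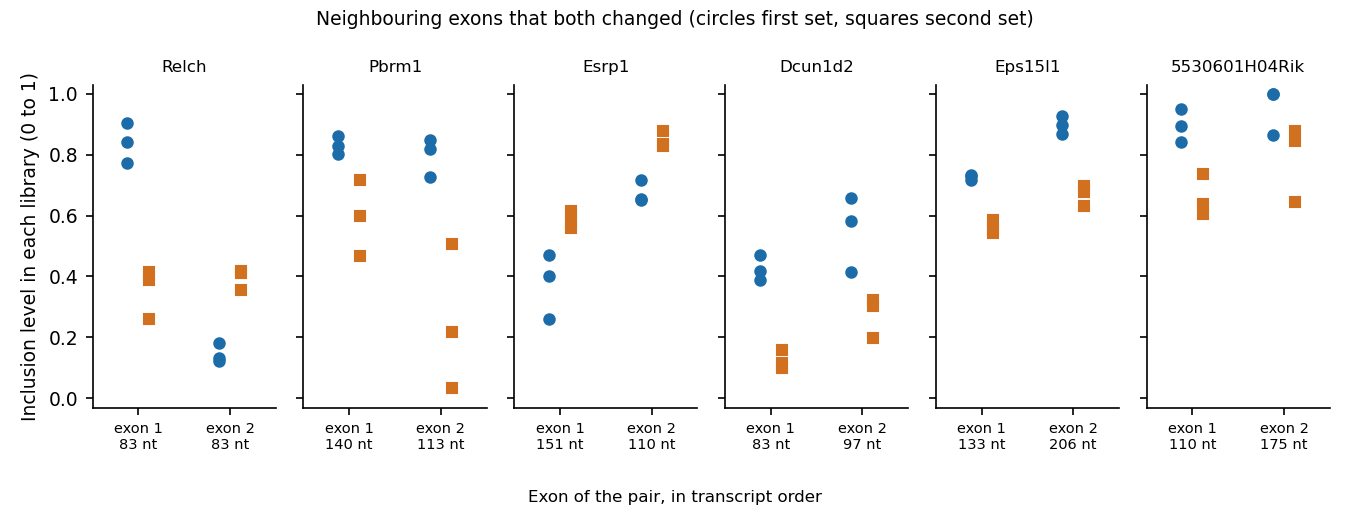
Inclusion level in each library (y axis, 0 to 1) of both exons (x axis, in transcript order, with lengths) for the 6 neighbouring pairs in which both changed. Circles are first-set and squares second-set libraries. In Esrp1, Dcun1d2, Eps15l1, 5530601H04Rik and Pbrm1 both exons differ in the same direction, while in Relch they differ in opposite directions. The lengths of the Pbrm1 pair and of the Relch pair do not add up to a multiple of 3.

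The exon sequences were searched on the transcribed strand for the tetramer TCTT and for the hexamers CTCTCT and, separately, TTCTCT, and matches of both hexamers can overlap. TCTT was in 65 of 117 positive exons, 55.6%, in 20 of 67 negative exons, 29.9%, and in 556 of 1425 exons not changed, 39.0%. It was in 34.2% of the frame-keeping exons and in 37.6% of all 29324 exons of 31 to 299 nt with enough reads. Positive exons were the shorter group, with a median of 109 nt against 121 nt for negative ones, and held TCTT 0.763 times per 100 nt against 0.309. CTCTCT was in 8.55% of positive, 2.99% of negative and 3.86% of exons not changed, and TTCTCT in 10.3%, 8.96% and 5.47%. The median share of pyrimidines was 53.1% in positive, 47.8% in negative and 48.0% in exons not changed. A match is a description of letters, and no binding was measured. Positive exons had a median upstream intron of 2356 nt and downstream intron of 1419 nt, and negative exons 1754 and 2248 nt. The intron sequences were not analysed here.

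Gene levels of the 165 genes with a changed frame-shifting exon were taken from the authors' deposited table, which has 1 FPKM value per group and no spread. None passed as higher in PTBP1_KO and 2 passed as lower, Tpm1 and H2-Bl. Over all tested genes, 0.388% passed as higher and 0.149% as lower. Of the 1271 tested genes with any frame-shifting exon, changed or not, 1 passed as higher and 7 as lower. The 2 genes are few, and their share was not tested. Tpm1 was at 192.1 FPKM in WT and 120.9 FPKM in PTBP1_KO, a log2 fold change of -0.67 with a q-value of 0.0125. H2-Bl, a class I histocompatibility gene with near-identical relatives that can share its reads, was at 93.6 and 24.1 FPKM with the same q-value. The reads of its changed exon row were 190, 152 and 149 in the first set and 1787, 113 and 1848 in the second. The libraries of the second set were thus far from alike, and the inclusion levels of the sets overlapped. An unadjusted p-value below 0.05 was listed for 16 of the 165, 9.7%, against 4.35% of the 15460 tested genes. It was listed for 5.31% of the 207 genes with a changed frame-keeping exon. Ptbp2 was at 19.0 FPKM in WT and 35.9 FPKM in the PTBP1_KO group (q-value 0.156).

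The median log2 ratio, log2((PTBP1_KO + 1)/(WT + 1)), was 0.0042 over these 165 genes and 0.0166 over all tested genes. Over the 207 genes with a changed frame-keeping exon it was 0.0478. It was 0.02 over 105 genes with a positive frame-shifting exon and -0.04 over 62 genes with a negative one. Where skipping gives the early stop, 20 of 30 genes with a positive exon were higher in PTBP1_KO, and 6 of 24 genes with a negative exon were, with medians of 0.02 and -0.11. Where inclusion gives it, 12 of 14 genes with a positive exon and 4 of 10 with a negative exon were higher. With no early stop in either form, 9 of 16 genes with a positive exon and 5 of 7 with a negative exon were higher. Of all tested genes 54.7% were higher, of the 165 genes 52.1%, and of the 207 genes with a changed frame-keeping exon 60.4%. These counts were not tested, and the ratios of single genes are mostly small. In bulk samples, fewer cells of a type and less RNA per cell cannot be told apart.

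Markers of the crypt epithelium were high in both groups, with Epcam at 1220 FPKM in WT and 1340 FPKM in PTBP1_KO, and none of the 9 passed the gene-level test. Of 14 markers of immune, stromal, vascular and nerve cells, 8 were listed below 1 FPKM in both groups, and the list ran from 0.00216 to 9.11 FPKM in WT and from 0.00335 to 15 FPKM in PTBP1_KO. Cd8a, of cytotoxic T cells, was the 1 of 11 tested that passed, at 4.30 FPKM in WT and 7.52 FPKM in PTBP1_KO (q-value 0.0125 in the authors' deposited table). Of the other immune markers, Cd3g (9.11 and 15 FPKM), Cd3e (5.66 and 8.68 FPKM), Ptprc (5.96 and 9.26 FPKM) and Itgae (1.71 and 3.57 FPKM) were also listed higher in PTBP1_KO, with q-values from 0.0842 to 0.856. The 31 nt frame-shifting exon of Cd8a had a difference of -0.017 with an FDR of 1.0. The part of immune RNA in the differences of exons in genes that immune cells also express, such as H2-Bl, was not tested.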

How the data were processed

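The submitters' processing notes name bcl2fastq 2.20, Trimmomatic 0.38 and STAR 2.6.1d for the reads of the 3 WT and 3 PTBP1_KO samples, with mm10 as the build, and Cufflinks with Cuffdiff for gene levels. The version of MATS is not given in the sources used here. The deposited splicing tables hold read counts per library that include or skip an exon, effective lengths, an inclusion level difference score and p-values with an FDR computed by the authors, per the file headers. The deposited gene table holds FPKM per group with the authors' log2 fold change, p-value and q-value. Columns of single libraries that were not used number 22. Inclusion per library was recomputed from the deposited counts, and set differences lay within 0.00109 of the authors' values. No test of set against set was run, since the headers name no genotype.

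Reading frames came from GENCODE M21 transcripts. A coding transcript that holds the exon between the flanking splice sites of its row was used first. Failing that, a coding transcript that joins these splice sites without the exon was used, and then any other that holds it. Within each kind, the transcript with the longest coding sequence was taken. The annotated stop was recovered in 23300 of 23350 transcripts, and frames were tested on simulated data. Named exons are the 10 largest differences of each sign, 1 per gene, with 20 reads in every library, plus changed exons of the PTB, splicing regulator and decay factor lists. The exons and lists were chosen with earlier results of these data known. Alternatives were other limits on reads, FDR, difference and inclusion, and each library left out. Motifs in introns were not analysed here, and the search of exons was chosen after seeing the data. Scripts ran in Python 3.11.15 with pandas 2.3.3 and numpy 2.4.6.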

Additional observations from a re-analysis of the deposited data

How the results depend on the processing

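The count of 193 changed rows was 82 with a minimum difference of 0.2, 125 with a mean of 50 reads and 102 with a pooled inclusion from 0.2 to below 0.8, since each setting keeps fewer rows by construction. The other settings gave 147 to 249, and leaving out each library in the selection gave 189 to 197. The share of positive rows stayed between 63.7% and 70.7% under both other limits on the difference and both stricter limits on reads, and over unique exons. All 193 rows kept their sign when any of the 6 libraries was left out of the difference, and 155 kept a size of at least 0.1 in all 6. The share of coding exons whose skipping gives an early stop was 50.6%, and 56.7% when any coding transcript could give it. By construction, that setting can add exons to the count but not remove them. Of 31 named changed rows, 9 lost the call under the 50-read limit and 6 under the limit of 0.2. The intron window alternative was not run. No paired analysis was possible because the columns carry no replicate numbers.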
